A study of Mus musculus with 20 samples.

Results

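The 10 genes described here are markers of Kupffer cells, the macrophages that live in the sinusoids of the liver. They are Clec4f, Adgre1, Vsig4, Cd5l, Timd4, Marco, Csf1r, C1qa, C1qb and C1qc. They were taken by symbol from a table of 53028 Ensembl genes, and all 10 had a row and passed the filter on low counts in every comparison. The choice was made by name and its rule used no measured value, but earlier results of these data were known.

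Kupffer cells clear bacteria, complement-coated particles, aged red cells and lipoproteins from portal blood, and they arise from fetal precursors that renew themselves in the liver. Their identity depends on signals from the neighbouring endothelium and stellate cells, and their survival on signals through the receptor encoded by Csf1r. Clec4f encodes a lectin that is restricted to Kupffer cells in mice, and Adgre1 encodes F4/80, the classical surface antigen of mouse macrophages. Vsig4 is a complement receptor that binds C3b, Timd4 recognizes phosphatidylserine on dying cells, and Marco is a class A scavenger receptor that binds bacteria and particles. Cd5l encodes AIM, a protein that macrophages secrete into blood. C1qa, C1qb and C1qc encode the A, B and C chains of C1q, the recognition molecule of the classical complement pathway.

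RNA was sequenced from the livers of 10 chow-fed male C57BL/6J mice injected intraperitoneally with locked nucleic acids (LNA), modified antisense oligonucleotides, at 3 mg/kg in 3 doses. The 5 controls (mice 1, 2, 3, 8 and 9) received an LNA against GFP, which mice lack, and the other 5 (mice 4, 6, 10, 11 and 12) an LNA against the small nucleolar RNA SNORA73, which the sample labels write as snoRA37. The mice were 8 or 10 weeks old, since the series text and the methods for liver polysomes differ. For liver polysomes the methods describe cycloheximide, which halts ribosomes on mRNA, given by tail vein just before death. Each liver gave a total RNA library (transcriptome) and a library from polysome fractions (translatome), so there were 20 libraries in 4 groups of 5. According to the methods, the libraries were made from RNA selected for poly(A). Total RNA here thus means poly(A)-selected RNA of the liver lysate. Whole liver was used, and fewer Kupffer cells cannot be told apart from less RNA of a gene per Kupffer cell. Levels are CPM, the counts scaled to a common library size after TMM normalization, and were not divided by transcript length, so they are compared between samples and not between genes.

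Total RNA libraries held 20005389 to 42023390 counts, and polysome RNA libraries 14852951 to 33824659. SNORA73 itself could not be checked in these poly(A)-selected libraries, since the rows for Snora73a and Snora73b held at most 2 and 4 counts in a library. In total RNA, GFP LNA mouse 9 and SNORA73 LNA mouse 10 had the lowest median correlation with their own group (0.9719 and 0.9639, against 0.9734 to 0.9844 for the other mice), and results are given with and without them where they matter. The published analysis left out a sample of each LNA group that its methods do not name, while all 10 mice are used here. Markers of hepatocytes, macrophages and monocytes stood apart in mice 9 and 10, and those of neutrophils and cholangiocytes in mouse 10 only. The summed level of 8 hepatocyte markers in total RNA was 42205 CPM in mouse 9 and 42973 CPM in mouse 10, against 49905 to 69822 CPM elsewhere. The 11 pan-macrophage markers, which Kupffer cells also express, summed to 343 CPM in mouse 9 and 306 CPM in mouse 10, against 172 to 259 CPM in the other 8 mice. Markers of monocytes and recruited macrophages summed to 41.3 CPM in mouse 9 and 41.4 CPM in mouse 10, against 23.7 to 35.7 CPM elsewhere. Those of cholangiocytes summed to 31.6 CPM in mouse 10, against 6.86 to 21.2 CPM elsewhere. The 7 neutrophil markers summed to 7.33 CPM in mouse 9 and 15.1 CPM in mouse 10, against 1.98 to 8.42 CPM in the other 8, with Ly6g at 0 in all total RNA libraries. The part of these differences in the levels below was not tested.

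The 10 genes lie on 8 chromosomes (RefSeq, GRCm38.p6). The 3 C1q genes are neighbours on chromosome 4, with C1qb at 136880126 to 136886200, C1qc at 136889801 to 136892936 and C1qa at 136895916 to 136898844, which together span 18.7 kb. They are also the shortest of the 10 genes on the genome, while Adgre1 (chromosome 17, 57358581 to 57483529) and Vsig4 (chromosome X, 96247201 to 96293438) are the longest, at 124949 and 46238 bp. Promoter sequences were found for 7 of the 10, each with its own transcript start. For Timd4 and C1qc that start lies inside the coordinates of the gene. The 250 bases before it thus overlap the 5′ end of the gene. In the 250 bases before the start, the letters GAGGAA, the core bound by PU.1, a transcription factor that macrophages require, occurred on either strand in 5 of the 7 (Vsig4, Cd5l, Marco, C1qb and C1qc) and in 23.3% of all 32851 promoters of the same table. The letters TGCTGA, the half-site of MAF factors, occurred in 4 of the 7 (Clec4f, Cd5l, Timd4 and C1qb) and in 16.1% of all promoters. In these 7 promoters no match of GAGGAA overlapped a match of TGCTGA, and a match describes the sequence only. Shown from RefSeq are the promoters of the adjacent C1qb (chr4:136886201-136886450, minus strand) and C1qc (chr4:136892915-136893164, minus strand), whose levels had the highest correlation in total RNA, of Vsig4 (chrX:96293439-96293688, minus strand), whose polysome level relative to total RNA lay in the other direction, and of Marco (chr1:120505025-120505274, minus strand), which followed the other genes least in total RNA. Each is written 5′ to 3′ on the strand of the gene, and the capitals mark GAGGAA or its reverse complement.
C1qb promoter: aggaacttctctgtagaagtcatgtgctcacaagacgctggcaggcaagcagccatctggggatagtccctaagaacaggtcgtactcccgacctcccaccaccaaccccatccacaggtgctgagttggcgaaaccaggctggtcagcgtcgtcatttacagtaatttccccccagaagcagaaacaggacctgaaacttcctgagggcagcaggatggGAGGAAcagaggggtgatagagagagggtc
C1qc promoter: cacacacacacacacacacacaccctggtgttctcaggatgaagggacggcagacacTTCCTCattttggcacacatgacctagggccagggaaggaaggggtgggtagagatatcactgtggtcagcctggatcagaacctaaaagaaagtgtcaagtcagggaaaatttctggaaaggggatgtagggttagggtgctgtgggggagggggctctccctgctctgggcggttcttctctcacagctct
Vsig4 promoter: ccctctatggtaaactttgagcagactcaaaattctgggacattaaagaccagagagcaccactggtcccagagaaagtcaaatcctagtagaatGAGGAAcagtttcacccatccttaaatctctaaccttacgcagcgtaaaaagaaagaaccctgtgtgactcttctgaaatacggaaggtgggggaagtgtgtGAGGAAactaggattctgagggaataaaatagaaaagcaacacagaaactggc
Marco promoter: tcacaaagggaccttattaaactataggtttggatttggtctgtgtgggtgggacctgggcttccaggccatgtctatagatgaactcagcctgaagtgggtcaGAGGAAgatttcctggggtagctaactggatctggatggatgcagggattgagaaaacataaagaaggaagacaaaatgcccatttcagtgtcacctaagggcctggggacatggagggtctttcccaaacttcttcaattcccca

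The first comparison asked whether knockdown of SNORA73 altered these genes in total liver RNA. None of the 10 genes passed edgeR's quasi-likelihood test between SNORA73 LNA and GFP LNA mice at an FDR under 0.05, and 0 of the 10 had an unadjusted p under 0.05. DESeq2 also called 0 of the 10. Among the 13195 genes tested, edgeR called 4 as higher (0.0303%) and 0 as lower, and an unadjusted p under 0.05 was reached by 4.96% of genes as higher and 3.69% as lower. DESeq2 called 0.568% of genes. The number called by edgeR in either direction was 59 (0.45%) without mouse 9 and 97 (0.745%) without mice 9 and 10. The groups overlapped for all 10 markers, where 1.1% of all genes were higher and 0.705% lower without overlap. The median log2 fold change of the 10 was −0.06, with 2 above and 8 below 0, beside a median of 0.01 over all genes, of which 51.7% were above and 48.3% below 0. This median turned with single mice. It was 0.05 without GFP LNA mouse 9 (7 above and 3 below 0), 0.01 without GFP LNA mouse 3, 0.02 without SNORA73 LNA mouse 11 and −0.18 without SNORA73 LNA mouse 10 (0 above and 10 below 0).

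Among the identity genes, the level of Clec4f in total RNA was 44.1, 39.9, 60.5, 50.5 and 61.9 CPM in GFP LNA mice 1, 2, 3, 8 and 9. In SNORA73 LNA mice 4, 6, 10, 11 and 12 it was 49.6, 53.6, 63.5, 39.2 and 47.8 CPM. The highest mouse of each group was mouse 9 or mouse 10, and the ranges were nearly the same. The log2 fold change of Clec4f was −0.02 (95% interval −0.35 to 0.31). Adgre1 was at 7.89, 8.05, 14.2, 10.2 and 14.4 CPM with GFP LNA and at 9.99, 9.17, 11.8, 7.06 and 9.99 CPM with SNORA73 LNA, in the same order of mice. Adgre1 had the lowest log2 fold change of the 10, −0.19 (−0.62 to 0.24), and edgeR gave it an adjusted p of 0.845.

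The receptors for particles differed more between mice than between groups. Vsig4 ranged from 16.4 to 33.5 CPM with GFP LNA and from 13.3 to 28.2 CPM with SNORA73 LNA, and its log2 fold change was −0.09 (−0.56 to 0.37). Timd4 ranged from 4.50 to 7.37 CPM and from 5.12 to 6.88 CPM in the same groups, with a log2 fold change of −0.09 (−0.43 to 0.24). Marco had the largest spread of the 10 relative to its level. Marco was at 4.83, 6.29, 12.1, 9.57 and 4.86 CPM in GFP LNA mice 1, 2, 3, 8 and 9 and at 9.83, 4.16, 24.0, 8.65 and 4.29 CPM in SNORA73 LNA mice 4, 6, 10, 11 and 12. Mouse 10 was the highest of all mice, and the other 4 SNORA73 LNA mice lay within the range of the controls or just below it. The log2 fold change of Marco was 0.43 (−0.55 to 1.41, adjusted p = 0.848 from edgeR) over all mice, −0.18 without mouse 10 and −0.30 without mice 9 and 10.

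The secreted products and the growth factor receptor overlapped as well. Cd5l had a median of 56.6 CPM with GFP LNA (45.9 to 74.5) and 53.0 CPM with SNORA73 LNA (40.7 to 82.8), with a log2 fold change of −0.08 (−0.51 to 0.34). Csf1r had medians of 15.6 and 16.6 CPM, and its log2 fold change was −0.05 (−0.43 to 0.32). The C1q chains had log2 fold changes of −0.07 for C1qa (−0.45 to 0.30), 0.04 for C1qb (−0.42 to 0.50) and −0.03 for C1qc (−0.43 to 0.38). For C1qb the 5 SNORA73 LNA values were 26.1, 22.1, 40.5, 21.6 and 21.2 CPM in mice 4, 6, 10, 11 and 12, so that mouse 10 stood far above the others. Of the 10 intervals that of Marco was the widest.

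**Figure D1:**
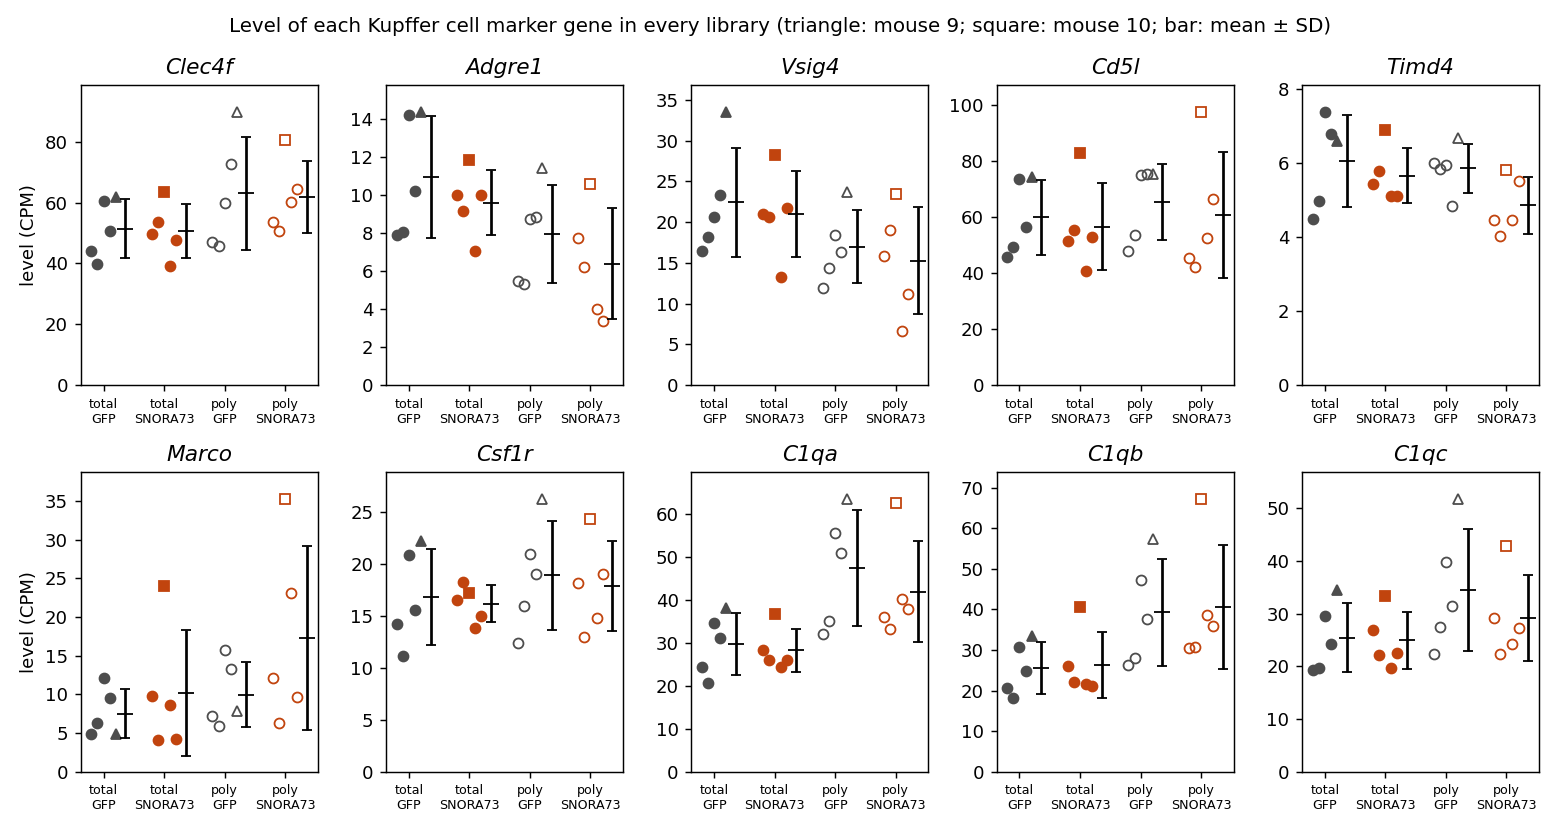
Level of each of the 10 Kupffer cell marker genes in CPM (vertical axes, starting at 0) in each of the 20 libraries, by RNA and LNA, with filled symbols for total RNA, open symbols for polysome RNA, grey for GFP LNA and orange for SNORA73 LNA, and the mean ± SD of 5 mice beside each group. The LNA groups overlap for every gene, and mouse 9 (triangles) or mouse 10 (squares) is often the highest.

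In polysome RNA, the question was whether the genes differed among the mRNAs being translated. Again 0 of the 10 passed the test of edgeR at an FDR under 0.05, 0 had an unadjusted p under 0.05, and DESeq2 called 0 of the 10. Of the 13060 genes tested, edgeR called 2 as higher (0.0153%) and 0 as lower, and DESeq2 called 2.15%. An unadjusted p under 0.05 was reached by 8.12% of genes as higher and 5.32% as lower, and all 10 markers overlapped between the groups, where 2.11% of genes were higher and 1.09% lower without overlap. Without mice 9 and 10 edgeR called 31 genes in either direction (0.242%), and without mouse 9 it called 17 (0.131%). The median log2 fold change of the 10 was −0.13, beside −0.01 over all genes, and it was −0.02 without GFP LNA mouse 9 and −0.34 without SNORA73 LNA mouse 10.

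Marco was the gene with the largest difference in polysome RNA. It was at 7.23, 5.87, 15.7, 13.2 and 7.87 CPM in GFP LNA mice 1, 2, 3, 8 and 9 and at 12.1, 6.24, 35.2, 23.2 and 9.60 CPM in SNORA73 LNA mice 4, 6, 10, 11 and 12. Mice 10 and 11 exceeded all controls, and the other 3 lay within their range. The log2 fold change of Marco was 0.78 (−0.13 to 1.70, with an unadjusted p of 0.0859 and an adjusted p of 0.445 from edgeR), and 0.28 without mice 9 and 10. Adgre1 did not pass the test either, with a log2 fold change of −0.32 (−0.99 to 0.36) and levels in SNORA73 LNA mice between 3.37 CPM in mouse 12 and 10.6 CPM in mouse 10. Timd4 was at 4.02 to 5.80 CPM with SNORA73 LNA and at 4.85 to 6.66 CPM with GFP LNA, and its log2 fold change of −0.28 (−0.63 to 0.08) had an unadjusted p of 0.119 and an adjusted p of 0.503 from edgeR. The remaining 7 genes had log2 fold changes between −0.25 (C1qc) and 0.04 (C1qb).

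**Figure D2:**
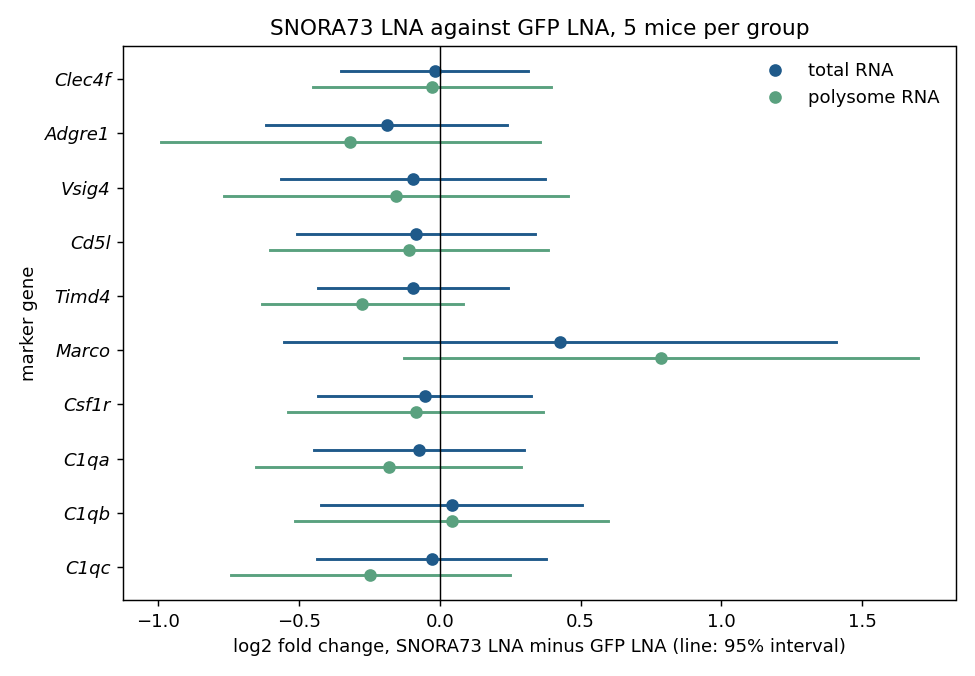
Log2 fold change of SNORA73 LNA over GFP LNA for each gene (horizontal axis) with its 95% interval from edgeR, in total RNA (blue) and polysome RNA (green), 5 mice per group. Every interval includes 0, and those of Marco are the widest.

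Since the LNA groups overlapped, the spread from mouse to mouse was described next. Over the 10 total RNA libraries, the log2 CPM of the markers moved together from mouse to mouse. The 45 pairs of markers had a median Pearson r of 0.84 (0.12 to 0.95), with 29 pairs above 0.8. After the group means were removed the median was 0.85, and the median over pairs stayed between 0.82 and 0.86 when any 1 mouse was left out. The highest r was between the neighbours C1qb and C1qc (0.95). In total RNA Marco followed the others least, with a median r of 0.47 to the other 9 genes and an r of 0.12 with Csf1r. In polysome RNA the median r over pairs was 0.61, and there Adgre1 was most like Vsig4 (0.85) while C1qc was most like Csf1r (0.95). All these points share the 10 livers and the scaling of each library.

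A joint level per mouse, the mean over the 10 genes of standardized log2 CPM, ordered the livers in total RNA as mouse 2 (−1.04), 11 (−1.003), 1 (−0.91), 12 (−0.44), 6 (−0.21), 4 (0.04), 8 (0.19), 3 (0.93), 9 (1.16) and 10 (1.29). Both ends of this order held mice of both LNA groups. In polysome RNA, mice 10 (1.31), 9 (1.15) and 3 (0.68) were again the highest, and mouse 6 was the lowest at −0.89. Albumin (Alb), the main secreted protein of hepatocytes, was at 19359 CPM in mouse 9 and 22791 CPM in mouse 10, against 25486 to 41092 CPM in the other 8 mice in total RNA. Its level in mouse 3, whose joint marker level was the third highest, was 31353 CPM.

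**Figure D3:**
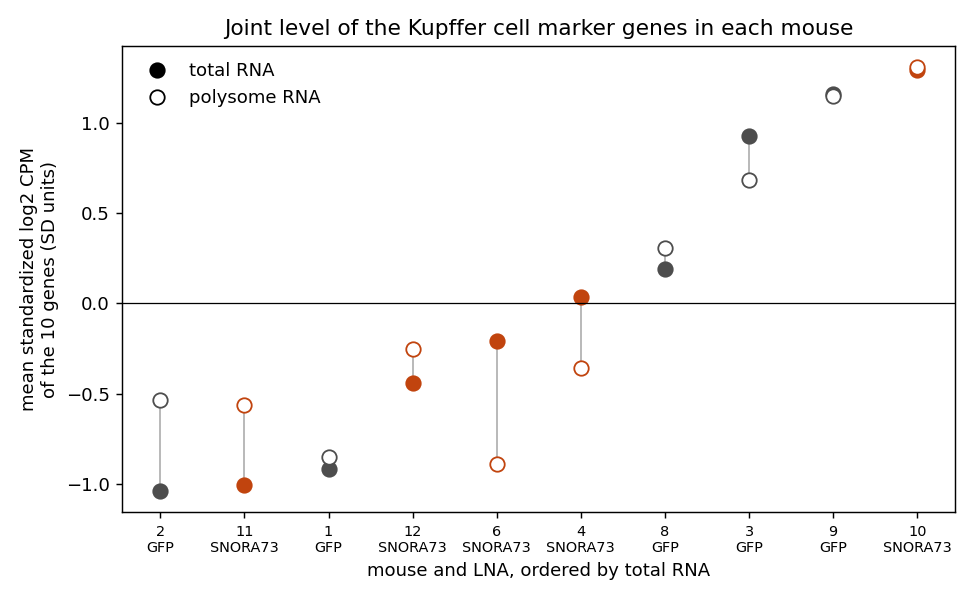
Mean standardized log2 CPM of the 10 genes (vertical axis, in SD units) in total RNA (filled) and polysome RNA (open) of each mouse, with mice ordered by total RNA and coloured by LNA (grey GFP, orange SNORA73). Mice 9 and 10, 1 of each group, are highest in both RNAs.

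Other genes were ranked by their r with this joint level among the 11775 genes with a mean of at least 1 CPM in total RNA. The 8 with the highest r were Fcgr4 (0.97), Cxcl14 (0.97), Cd180 (0.96), Otulinl (0.95), Ralgapa1 (0.94), March1 (0.94), Ucp2 (0.93) and Ctss (0.93). Fcgr4 encodes an activating Fc receptor for IgG, Cd180 a Toll-like receptor homologue and Ctss the lysosomal protease cathepsin S. Fcgr4 ranged from 2.70 to 5.67 CPM over the mice, with mouse 10 the highest, and it was also first of 11583 genes in polysome RNA (r = 0.95). For Ctss the r in polysome RNA was 0.89, while for Otulinl and Ralgapa1 it was 0.47 and 0.46. No p is given for these values, since the highest were picked from many genes over 10 livers.

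The polysome and total libraries of the same liver were then compared, which asks how the level of each mRNA differed between polysome and total RNA. Each level is relative to the other mRNAs of its library, so the comparison does not give the fraction of an mRNA on polysomes. The C1q chains were higher in polysome RNA, Adgre1 and Vsig4 were lower, and these opposite directions were seen in all 10 mice. C1qa had 47.4 ± 13.5 CPM in polysome RNA and 29.8 ± 7.17 CPM in total RNA with GFP LNA (SD, n = 5). Without the mouse as a block, C1qa was the only marker called in each group, with log2 fold changes of 0.67 (0.24 to 1.104, adjusted p = 0.0128 from edgeR) with GFP LNA and 0.57 (0.13 to 1.003, adjusted p = 0.0367) with SNORA73 LNA. The call with SNORA73 LNA was lost when only genes above 1 CPM in every library were kept and without mouse 4, 10, 11 or 12. Over all 13795 genes this test called 21.8% as higher and 21% as lower with GFP LNA, and 19.7% and 18.2% with SNORA73 LNA.

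With the mouse as a block, which uses the pairing of the libraries of a liver, 5 of the 10 genes rose in polysome RNA (Clec4f, Marco, C1qa, C1qb and C1qc) and 2 fell (Adgre1 and Vsig4), in both LNA groups. Over all genes the blocked test called 28.9% as higher and 27.2% as lower with GFP LNA, and 26% and 25.1% with SNORA73 LNA. In the blocked fit the median log2 fold change of the 10 was 0.22 in controls and 0.17 after SNORA73 LNA, beside 0.01 and 0.00 over all genes. Without mice 9 and 10 the blocked test called 3 genes as higher in each group (C1qa, C1qb and C1qc with GFP LNA, and Marco, C1qa and C1qb with SNORA73 LNA) and the same 2 as lower.

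The ratio of polysome to total CPM of C1qa within a mouse was 1.31, 1.70, 1.61, 1.63 and 1.67 in GFP LNA mice 1, 2, 3, 8 and 9 and 1.27, 1.28, 1.70, 1.65 and 1.46 in SNORA73 LNA mice 4, 6, 10, 11 and 12. Its blocked log2 fold changes were 0.66 (0.47 to 0.84, adjusted p = 1.63e-05 from edgeR) and 0.55 (0.36 to 0.73, adjusted p = 0.000114). For C1qb the ratio lay between 1.27 and 1.71 with GFP LNA and between 1.16 and 1.78 with SNORA73 LNA. C1qb rose by 0.59 (0.39 to 0.79) and 0.60 (0.40 to 0.81) on the log2 scale in the blocked fit. C1qc had the smallest ratios of the chains, 1.16 to 1.4995 and 1.01 to 1.28, and blocked log2 fold changes of 0.42 (0.25 to 0.58) and 0.21 (0.04 to 0.38, adjusted p = 0.0360 from edgeR). All ratios of the 3 chains were above 1. The calls of C1qa and C1qb held in both groups with each mouse left out, while that of C1qc with SNORA73 LNA held in 5 of 10 such fits and was lost without mouse 2, 3, 10, 11 or 12.

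For Adgre1 the ratio was 0.70, 0.66, 0.62, 0.87 and 0.80 in GFP LNA mice 1, 2, 3, 8 and 9. In SNORA73 LNA mice 4, 6, 10, 11 and 12 it was 0.78, 0.68, 0.89, 0.56 and 0.34. Mouse 12 was the lowest, and its polysome library held the fewest counts of Adgre1 (47). The blocked log2 fold changes of Adgre1 were −0.48 (−0.79 to −0.16, adjusted p = 0.0124 from edgeR) and −0.65 (−0.98 to −0.32, adjusted p = 0.00283). Vsig4 had ratios of 0.70 to 0.89 with GFP LNA and 0.50 to 0.93 with SNORA73 LNA, with mice 11 and 12 the lowest. Its blocked log2 fold changes were −0.39 (−0.64 to −0.15) and −0.52 (−0.78 to −0.27, adjusted p = 0.00210 from edgeR), and the calls of Adgre1 and Vsig4 held with each mouse left out. Over all 10 mice neither passed the test without the block.

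Marco and Clec4f were less even. The ratio of Marco was 1.498, 0.93, 1.30, 1.38 and 1.62 with GFP LNA and 1.23, 1.499, 1.47, 2.68 and 2.24 with SNORA73 LNA, in the same order of mice, so that mice 11 and 12 stood out. Its blocked log2 fold changes were 0.40 (0.09 to 0.72, adjusted p = 0.0295 from edgeR) and 0.80 (0.48 to 1.12, adjusted p = 0.000439). Clec4f had ratios of 0.99 to 1.45 and 0.95 to 1.53, and its blocked calls (0.27 and 0.28 on the log2 scale) held in 4 and 6 of the 10 fits that leave out a mouse. The call of Clec4f was lost without mouse 2, 4, 8, 9, 10 or 12 with GFP LNA, also with DESeq2 size factors, and without mouse 2, 10, 11 or 12 with SNORA73 LNA. That of Marco with GFP LNA was lost without mouse 1, 3, 8 or 9. Cd5l, Timd4 and Csf1r did not pass the test in either group. Their blocked log2 fold changes were 0.13, −0.03 and 0.17 with GFP LNA and 0.08, −0.23 and 0.12 with SNORA73 LNA.

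**Figure D4:**
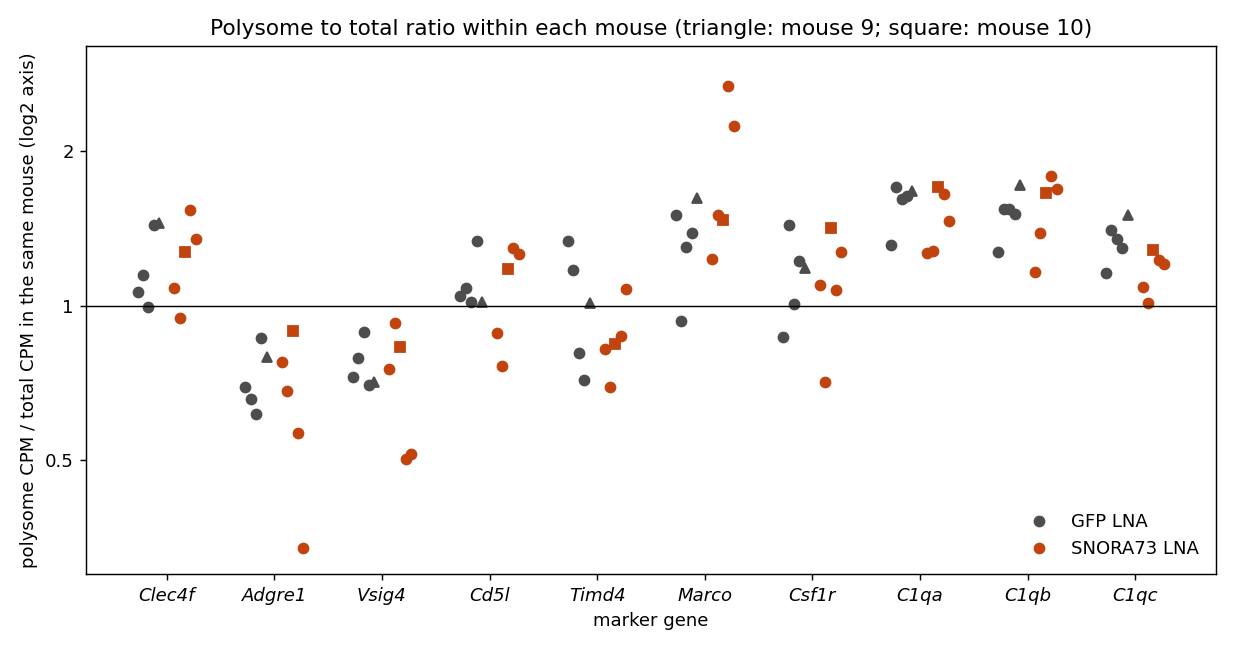
Ratio of polysome CPM to total CPM within each mouse (vertical axis, log2 spaced) for each gene, in 5 GFP LNA mice (grey) and 5 SNORA73 LNA mice (orange). All 10 mice lie above 1 for C1qa, C1qb and C1qc and below 1 for Adgre1 and Vsig4.

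Whether these ratios differed between the LNA groups was tested with an interaction term in the model of all 20 libraries. This test called 0 of the 10 genes with or without the block, and 0 had an unadjusted p under 0.05 in either fit. With the block edgeR called 1 of 13795 genes as higher (0.00725%), and without it 1 as lower (0.00725%). Without the block, 2.04% of genes as higher and 0.87% as lower had an unadjusted p under 0.05. The largest blocked interaction was that of Marco, 0.39 (−0.05 to 0.84, with an adjusted p of 0.655 from edgeR), followed by C1qc with −0.21 (−0.44 to 0.03, adjusted p of 0.662). For C1qb it was 0.01 (−0.28 to 0.29).

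Since C1q is built from equal numbers of its chains, the share of each chain in the summed counts of the 3 was compared. With GFP LNA in total RNA the shares were 36.9% ± 1.46 for C1qa, 31.6% ± 0.606 for C1qb and 31.5% ± 1.58 for C1qc (SD, n = 5), on 1284 to 4139 counts per library over all total RNA. In polysome RNA the share of C1qb was 35.8% ± 2.68 with SNORA73 LNA and 32.2% ± 1.06 with GFP LNA. It was 31.8, 35.5, 38.9, 37.4 and 35.5% in SNORA73 LNA mice 4, 6, 10, 11 and 12, and 30.9 to 33.2% in the controls, so that only mouse 4 overlapped the controls. The difference of 3.62 percentage points had p = 0.0317 in a two-sided exact permutation test and p = 0.0951 after adjustment over the 3 chains, where the smallest p the design allows is 0.00794. It passed after adjustment without GFP LNA mouse 9 (0.0475) or SNORA73 LNA mouse 4 (0.0238, exact permutation tests). Mouse 9 had the highest share of the controls (33.2%), so leaving it out widens the difference by construction. Leaving out mouse 4, the only mouse that overlapped the controls, separates the groups by construction. Neither p adds support. The shares of C1qa (37.8% against 39.3%) and C1qc (26.4% against 28.4%) did not pass this test, nor did any chain in total RNA. Shares are of counts, which longer transcripts gather more of, so they do not give the ratio of molecules.

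**Figure D5:**
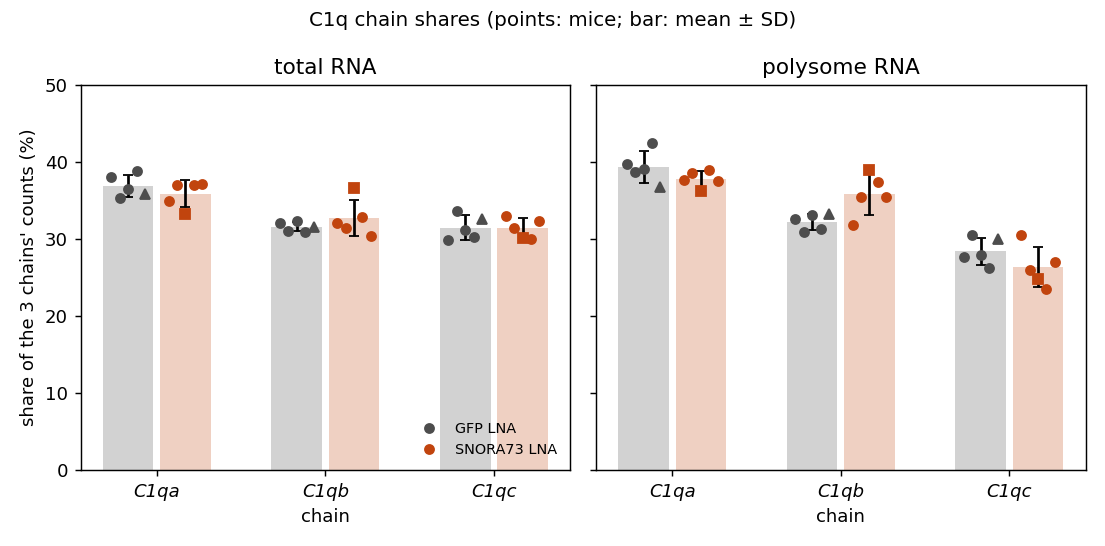
Share of each C1q chain in the counts of the 3 chains (vertical axis, %, starting at 0) in total RNA (left) and polysome RNA (right), with bars for the mean, lines for the SD of 5 mice and points for mice (grey GFP LNA, orange SNORA73 LNA). The share of C1qb in polysome RNA is higher in 4 SNORA73 LNA mice than in the controls, and mouse 4 is not.

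The 10 markers were set beside further lists of the Kupffer cell and its neighbours. Of 14 other Kupffer cell genes, 0 were called between LNA groups in either RNA, and the iron exporter Slc40a1 had the lowest p in both, with log2 fold changes of −0.40 and −0.39 (adjusted p = 0.563 and 0.317 from edgeR). Of 10 transcription factors of Kupffer cells, 0 were called. Nr1h3, which encodes LXRα and is also expressed by hepatocytes, differed by 0.30 on the log2 scale in total RNA (adjusted p = 0.378 from edgeR), and Zeb2 had 1.16 in polysome RNA (adjusted p = 0.0823). None of 7 niche signals, 7 niche receptors, 6 tested partners of C1q or 11 pan-macrophage genes was called in either RNA. Among the markers of other cell types, the scavenger receptor Stab2 of sinusoidal endothelium was called as higher in total RNA, with 5.93 CPM in GFP LNA and 12.4 CPM in SNORA73 LNA mice and a difference of 1.06 on the log2 scale (adjusted p = 0.0497 from edgeR). This call lay just under the threshold of 0.05. In polysome RNA 0 of the 10 endothelial markers were called, where edgeR called 0.0153% of all genes as higher. All 10 had a log2 fold change above 0 there. The 10 endothelial markers summed to 176 to 212 CPM with GFP LNA and 219 to 239 CPM with SNORA73 LNA in total RNA. In polysome RNA they summed to 138 to 162 CPM and 172 to 195 CPM. Singly, 2 of these 10 in total RNA and 3 in polysome RNA were higher without overlap, as were 1.1% and 2.11% of all genes. The 10 Kupffer cell markers summed to 196 to 324 CPM and 194 to 345 CPM in total RNA. All these sums rest on TMM factors, which were 1.03 to 1.07 with GFP LNA and 0.882 to 0.998 with SNORA73 LNA in total RNA. In polysome RNA the factors were 1.01 to 1.1 and 0.881 to 1.03. Whether the endothelial sums stay apart under another scaling was not tested.

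Between polysome and total RNA, the other lists were described by the test without the block, which called 21.8% of all genes as higher and 21% as lower with GFP LNA, and 19.7% and 18.2% with SNORA73 LNA. Of the 14 other Kupffer cell genes, 4 rose and 2 fell with GFP LNA, and 3 rose and 2 fell with SNORA73 LNA. The chemokine Ccl24 (1.25 and 0.93 on the log2 scale) and the lectin Clec1b (0.50 and 0.63) rose in both groups, and Slc40a1 (−0.99 and −0.97) and the prostaglandin-degrading enzyme Hpgd (−1.01 and −0.97) fell in both. Of the 6 tested partners of C1q, the protease C1ra and the complement components C3 and C4b rose in both groups. Of the 11 pan-macrophage genes, Aif1, Fcer1g and Tyrobp rose in both, and Mertk was among the 2 that fell with GFP LNA. Of the 7 niche receptors, 4 fell in each group, Bmpr2, Tgfbr1 and Notch2 among them, and Acvrl1 rose with GFP LNA.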

How the data were processed

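Whole liver of 10 mice was analysed, with a total and a polysome RNA library of each. The deposited table holds estimated counts per Ensembl gene. According to their methods, the authors trimmed reads with fastp, removed rRNA reads with bowtie, estimated transcript abundance with kallisto on the GRCm38 transcriptome of Ensembl and summed it to genes with tximport. The reads were stranded, and the strand option of kallisto is not given in the sources used here. Every column was assigned to a mouse by its label.

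Expected counts were rounded. Symbols were found for 51903 of 53028 genes, and the rest made up no more than 2.99% of any library. Genes with a CPM over 0.5 in at least 4 libraries of a fit entered edgeR 4.0.16 and its quasi-likelihood test (R 4.3.3, TMM, Benjamini-Hochberg over all genes tested, FDR 0.05). Total and polysome RNA were fitted apart for the LNA comparisons, and all 20 libraries together for polysome against total RNA and the interaction. Log2 fold changes are given with 95% intervals, and C1q shares were tested with exact permutation tests over mice. The mouse number pairs the libraries of a liver: deviations from the group means correlated by 0.126 to 0.579 between them. Mouse 6, the lowest, correlated more with another mouse (0.246). Limma 3.58.1, DESeq2 1.42.0, its size factors, library totals, 2 other filters, a fold threshold of 0.5, a single fit, the mouse as block, and leaving out mice were alternatives. The fits of the block with other scalings, another tool or fewer mice were added after the data had been seen. Tests were checked on simulated counts.

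The genes, lists and tests were chosen with earlier results of these data known. Named are the 10 markers, the 8 genes most like them in total RNA, and in each list up to 4 genes called or else the gene with the lowest p. Promoters are those of RefSeq (GRCm38.p6). Levels per kb of transcript and isoforms were not used here.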

Additional observations from a re-analysis of the deposited data

Results flagged for a closer look

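For each marker, RNA and LNA group (40 groups of 5 mice), the gap between the most extreme mouse and its nearest neighbour was divided by the range of the group. It was above the critical value of 0.71 in 4 groups. That value is set for about 1 of 20 groups of normally distributed values. The 40 groups are not independent, since they share 10 livers and the markers moved together, so the count was not tested against that rate. In all 4 flagged groups the extreme mouse was SNORA73 LNA mouse 10, and its value was the highest. The gap was 0.715 of the range for Marco in total RNA (24.0 CPM in mouse 10, against 4.16 to 9.83 CPM in the other mice of the group) and 0.746 for C1qb in total RNA (40.5 CPM). In polysome RNA it was 0.765 for C1qa (62.5 CPM, against 33.2 to 40.1 CPM) and 0.78 for C1qb (67.2 CPM, against 30.4 to 38.5 CPM). Mouse 10 also had the highest neutrophil marker sum in total RNA (15.1 CPM, against 1.98 to 8.42 CPM in the other 9 mice), with S100a8 at 5.62 CPM. The part of these cells in these values was not tested.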

How the results depend on the processing

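The 10 markers stayed uncalled between LNA groups and in the interaction under every alternative run. With library totals all genes together had a median of −0.14 in total and −0.17 in polysome RNA on the log2 scale, and the markers of −0.21 and −0.29. Across all the alternatives several directions turned, that of Marco in total RNA (0.43) among them. C1qb turned to −0.12 in total RNA, −0.13 in polysome RNA and −0.0105 in the interaction with library totals, and to −0.0491 and −0.0377 in total and polysome RNA without mice 9 and 10. Marco (−0.30) and Csf1r (0.0464) in total RNA and Clec4f in polysome RNA (0.0246) also turned without those mice, and Clec4f did with limma-voom (0.00146). The interaction of Clec4f turned to 0.0193 with limma-voom, 0.00421 with DESeq2, 0.00420 with its size factors, 0.0717 without mice 9 and 10 and 0.0189 with the replicate block. The share of C1qc in total RNA turned to 0.499 percentage points without mice 9 and 10.

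Between polysome and total RNA without the block, 2 markers were higher in each group with DESeq2, with library totals and without mice 9 and 10, in each case C1qa and C1qb. Without those mice 1 was lower with SNORA73 LNA (Adgre1), and with CPM over 1 in every library 0 were higher with SNORA73 LNA. With the mouse as replicate block, 5 were higher and 2 lower in each group, and 3 higher in each without mice 9 and 10. The block changed no call in the interaction. The median correlation of 0.84 between markers was 0.61 in polysome RNA.

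When 1 mouse was left out at a time, log2 fold changes in total RNA ranged from −0.11 to 0.0567 for Clec4f, −0.23 to 0.0888 for Vsig4, −0.26 to 0.00932 for Cd5l, −0.18 to 0.66 for Marco, −0.18 to 0.0591 for Csf1r, −0.19 to 0.0226 for C1qa, −0.17 to 0.15 for C1qb and −0.16 to 0.0971 for C1qc. In polysome RNA they ranged from −0.13 to 0.14 for Clec4f, −0.36 to 0.0491 for Vsig4, −0.33 to 0.00106 for Cd5l, −0.21 to 0.0682 for Csf1r and −0.21 to 0.23 for C1qb. Between polysome and total RNA with GFP LNA Timd4 ranged from −0.14 to 0.0586. The interaction ranged from −0.0830 to 0.0801 for Clec4f, −0.28 to 0.0498 for Adgre1, −0.15 to 0.0502 for Vsig4, −0.0780 to 0.0783 for Cd5l, −0.13 to 0.12 for Csf1r and −0.0428 to 0.0898 for C1qb. Markers called higher in polysome RNA numbered 1 to 2 with GFP LNA and 0 to 2 with SNORA73 LNA, and 0 to 1 were lower with SNORA73 LNA. With the block, 3 to 5 were higher in each group. The difference in the share of C1qc was −0.484 to 0.455 percentage points in total RNA and −3.09 to −1.35 in polysome RNA, that of C1qa −2.21 to −0.795 and that of C1qb 2.85 to 4.63 in polysome RNA. Past adjustment were C1qb without mouse 9 or 4, C1qa without mouse 9 and C1qc without mouse 4. In each case the mouse left out was the one of its group furthest toward the other group. Leaving it out widens the difference by construction, so these fits add no support. For C1qb, leaving out mouse 4 removed the only overlap between the groups.

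Division by transcript length was not run. At these depths Timd4 and Adgre1 rest on the fewest counts, down to 77 and 47 in a polysome library.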

Other observations

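The genes most like the joint marker level were also listed for polysome RNA, a choice made after the values were seen. After Fcgr4 the highest r over the 10 polysome libraries were those of Tspan4 (0.95), Sqle (0.95), Fcgr1 (0.95), Tmem176b (0.94), Folr2 (0.94), Srebf2 (0.94) and H2-Q4 (0.93). Fcgr1, the high-affinity Fc receptor, and Folr2, a folate receptor of resident macrophages, had an r of 0.84 and 0.92 in total RNA. Sqle encodes an enzyme of cholesterol synthesis and Srebf2 the factor that activates that pathway, and their r in total RNA was 0.89 and 0.72. These are values over the same 10 livers, and the r carries no test.

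Zeb2, a transcription factor of Kupffer cells that endothelial and stellate cells also express, was at 6.21 CPM in polysome RNA with GFP LNA and at 13.9 CPM with SNORA73 LNA, against 10.4 and 11.4 CPM in total RNA. Its interaction was 1.05 on the log2 scale (unadjusted p = 0.00169, adjusted p = 0.9999 from edgeR). Mertk, a receptor for dying cells, had a log2 fold change of 0.55 between LNA groups in polysome RNA (unadjusted p = 0.0039, adjusted p = 0.185 from edgeR). Most genes of both lists went the other way between LNA groups in polysome RNA. Of the 10 transcription factors, 4 were above and 6 below 0 (median −0.16), and of the 11 pan-macrophage genes, 2 were above and 9 below (median −0.33).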
